A study of Arabidopsis thaliana with 12 samples.

Results

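The 10 genes followed here make or remove jasmonates, and they were taken by gene identifier, 10 of the 27655 genes in the expression table. They were the lipoxygenases LOX2 (AT3G45140), LOX3 (AT1G17420), LOX4 (AT1G72520) and LOX6 (AT1G67560), the allene oxide synthase AOS (AT5G42650), the allene oxide cyclases AOC1 (AT3G25760) and AOC2 (AT3G25770), the reductase OPR3 (AT2G06050), the conjugating enzyme JAR1 (AT2G46370) and the hydroxylase CYP94B3 (AT3G48520). In TAIR10.1 coordinates the plus-strand genes were LOX2 (chr3:16525245-16529352), LOX3 (chr1:5977323-5981521), LOX4 (chr1:27308513-27312756), LOX6 (chr1:25319804-25324581), AOC1 (chr3:9403779-9405338), AOC2 (chr3:9406669-9408071) and JAR1 (chr2:19033586-19036683). The minus-strand genes were AOS (chr5:17097564-17099595), OPR3 (chr2:2359114-2362375) and CYP94B3 (chr3:17974853-17976774). Main inflorescence stems of Arabidopsis thaliana plants aged 2 months were sequenced as messenger RNA in 4 genotypes of 3 replicates each. WT was Col-0, ccr was ccr1-3, a mutant of the lignin enzyme cinnamoyl-CoA reductase, fer was fer4, a mutant of the receptor kinase FERONIA, and ccrfer was the double mutant. The genotype entries of ccrfer replicates 2 and 3 carried other fer allele numbers than replicate 1, and titles were followed. The number of plants behind a replicate was not given, and where replicates were not grown separately, p-values cover only the spread between libraries.

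Jasmonates are lipid hormones of wounding, defence, stamen development and senescence. In the plastid, 13-lipoxygenases oxygenate linolenic acid, AOS turns the hydroperoxide into an allene oxide, and AOC cyclizes it to oxo-phytodienoic acid. OPR3 reduces this precursor in the peroxisome, where beta-oxidation shortens it to jasmonic acid. JAR1 joins jasmonic acid to isoleucine, the form read by the receptor COI1, and CYP94 enzymes, amidohydrolases and jasmonic acid oxidases take the active form or its precursor away. LOX2 and AOS are themselves known to be induced by jasmonate.

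Libraries held 56884740 to 227159338 reads, and 91.4% to 94.2% were mapped. FER (AT3G51550) was at 85.1, 83.1 and 83.95 FPKM (fragments scaled by transcript length and sequencing depth) in the 3 libraries labelled fer, against 83.0 to 85.9 in WT, 96.5 to 100.4 in ccr and 0.159 to 1.49 in ccrfer. FER thus goes against that label, and these are called the fer-labelled libraries throughout. CCR1 (AT1G15950) was at 188 to 220.0 FPKM in ccr and 222 to 256 in WT, so transcript of the mutated gene was present. AT2G01021 was at 182868 to 332845 FPKM in WT, 42536.3 to 410312 in ccr and 1429630 to 15147300 in the fer-labelled libraries. In ccrfer it was at 6128100, 113705 and 45932600, the last in replicate 3, and differences that rest on that replicate are given without it too. The level of AT2G01021 thus differed between genotypes, which limits the fits that use it as a covariate. The summed FPKM of 8 xylem and fibre markers was 9.44 to 12.4 in WT, 363 to 381 in the fer-labelled libraries, 443 to 455 in ccr and 850 to 876 in ccrfer, and 3 of the 8 had a mean under 1 in WT. The sum of 5 senescence markers was 593 to 618 in WT and 141 to 191 in the other genotypes, and that of 6 green-tissue markers was 4421 to 4756 in the fer-labelled libraries and 2556 to 3298 elsewhere. The sum of 6 phloem markers was 464 to 481 in WT, 350.3 to 376 in the fer-labelled libraries and 211 to 300.1 in ccr and ccrfer, and that of 6 epidermis markers was 105 to 112 in WT and 146 to 229 in the other genotypes. All 7 flower and pollen markers had means under 1 in every genotype. Genes within a list did not all move together: against WT, 2 of the 6 phloem markers rose and 4 fell in ccr, 3 rose and 3 fell in the fer-labelled libraries, and 2 rose and 3 fell in ccrfer, and of the 5 senescence markers 4, 4 and 5 fell and none rose. Of the 5 epidermis markers tested, 2 rose and 2 fell in ccr against WT. In the fer-labelled libraries 3 of them rose and 1 fell, and in ccrfer 3 rose and none fell. The marker sums moved with the genotypes, their part in the results was not tested, and in whole stems fewer cells of a type and less RNA per cell cannot be told apart.

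Differences are on the log2(FPKM + 1) scale with their standard error (SE), adjusted p comes from limma over the 18428 genes tested, and a gene was called at an adjusted p under 0.05. CYP94B3 missed the filter of FPKM 1 in 3 libraries, and the other 9 members were tested.

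Stretches upstream of LOX2, AOS, AOC1 and AOC2 are shown because these genes differed strongly between genotypes and the cyclases stand in tandem. Each is the 300 bases before the start that RefSeq annotates in assembly TAIR10.1, 5′ to 3′ on the gene's strand. Capitals mark words known to be bound by MYC2, the main transcription factor of jasmonate responses: the palindrome CACGTG (the G-box) and the related AACGTG and CACATG, searched on both strands, with no overlaps found. The windows lie at chr3:16524945-16525244 (LOX2, plus strand), chr5:17099596-17099895 (AOS, minus strand), chr3:9403479-9403778 (AOC1, plus strand) and chr3:9406369-9406668 (AOC2, plus strand).
LOX2: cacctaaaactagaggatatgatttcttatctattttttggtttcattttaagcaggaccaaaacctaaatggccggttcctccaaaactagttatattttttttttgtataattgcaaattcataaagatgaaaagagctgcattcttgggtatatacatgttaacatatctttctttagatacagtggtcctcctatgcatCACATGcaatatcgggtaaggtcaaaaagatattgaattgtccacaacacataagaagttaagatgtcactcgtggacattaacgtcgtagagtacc
AOS: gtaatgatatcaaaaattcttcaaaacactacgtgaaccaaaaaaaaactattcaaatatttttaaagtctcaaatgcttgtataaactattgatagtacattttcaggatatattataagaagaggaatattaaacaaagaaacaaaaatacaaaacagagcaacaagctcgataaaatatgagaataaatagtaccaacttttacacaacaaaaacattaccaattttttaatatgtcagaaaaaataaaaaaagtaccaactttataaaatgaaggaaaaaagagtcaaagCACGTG
AOC1: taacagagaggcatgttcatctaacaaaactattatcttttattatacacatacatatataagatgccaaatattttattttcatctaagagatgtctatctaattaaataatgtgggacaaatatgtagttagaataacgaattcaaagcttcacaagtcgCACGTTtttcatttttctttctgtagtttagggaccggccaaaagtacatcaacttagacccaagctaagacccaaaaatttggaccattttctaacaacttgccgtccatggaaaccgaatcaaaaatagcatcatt
AOC2: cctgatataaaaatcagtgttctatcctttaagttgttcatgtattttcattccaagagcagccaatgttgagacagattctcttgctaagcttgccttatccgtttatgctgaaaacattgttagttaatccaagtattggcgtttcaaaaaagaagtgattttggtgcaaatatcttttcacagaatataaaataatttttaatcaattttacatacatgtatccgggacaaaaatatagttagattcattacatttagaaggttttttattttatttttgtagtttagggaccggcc

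AOS held CACGTG in the 6 bases next to its start and was the only member with that word, which 7.09% of 27443 upstream windows held. LOX2 held CACATG 97 to 92 bases before its start, a word in 13.1% of windows that also stood before LOX3 on the other strand (65 to 60) and JAR1 (138 to 133). AACGTG, in 8.71% of windows, stood before LOX4 (94 to 89) and, on the other strand, before AOC1 (138 to 133). None of these words lay in the windows of AOC2, LOX6, OPR3 and CYP94B3. The longest stretch shared by the AOC1 and AOC2 windows had 19 bases, 117 to 99 bases before AOC1 and directly before AOC2. A match describes letters in a window and not binding.

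LOX2, a chloroplast lipoxygenase of the wound response, varied most of all members. It was at 2.32, 2.40 and 2.81 FPKM in WT, 6.95, 7.18 and 6.58 in ccr, 221, 212 and 215 in fer-labelled libraries, and 68.7, 70.3 and 71.3 in ccrfer. No genotype overlapped another, in the rising order WT, ccr, ccrfer, fer-labelled. Against WT the difference was 1.17 in ccr (SE 0.0672, adjusted p = 5.8e-08), 4.34 in ccrfer (adjusted p = 5.44e-13) and 5.95 in the fer-labelled libraries (adjusted p = 2.68e-14). From ccr to ccrfer LOX2 rose by 3.17 (adjusted p = 2.94e-11), and ccrfer minus fer-labelled was -1.61 (adjusted p = 8.38e-09). The summed green-tissue markers were highest in the fer-labelled libraries too, and their part in the LOX2 values was not tested.

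LOX4, a wound-inducible lipoxygenase, was lower in WT than in the other genotypes. It was at 8.59, 8.74 and 8.40 FPKM in WT, 17.7, 15.97 and 15.9 in ccr, 17.7, 19.2 and 19.2 in fer-labelled libraries, and 14.98, 16.8 and 15.3 in ccrfer. The 9 libraries of the other genotypes lay above the 3 WT libraries. Against WT the difference was 0.87 in ccr (SE 0.0781, adjusted p = 2.79e-06), 1.04 in the fer-labelled libraries (adjusted p = 3.49e-07) and 0.80 in ccrfer (adjusted p = 4.55e-06). Between ccrfer and ccr it was -0.07, without a call (adjusted p = 0.567). The ccrfer minus fer-labelled difference of -0.24 (adjusted p = 0.0282) lost its call without ccrfer replicate 1 (0.0786), without fer replicate 2 (0.0679) or 3 (0.0749), and in a fit of these genotypes alone (0.138).

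LOX3, whose coding sequence was 80.6% identical to that of LOX4, stood apart in ccrfer. It was at 9.02, 9.46 and 8.48 FPKM in WT, 8.71, 8.69 and 8.93 in ccr, 8.64, 9.16 and 7.65 in fer-labelled libraries, and 12.7, 15.7 and 11.2 in ccrfer. WT, ccr and the fer-labelled libraries overlapped, and the 3 ccrfer libraries lay above the 9 others. The ccrfer difference was 0.53 from ccr (SE 0.117, adjusted p = 0.00723), 0.57 from the fer-labelled libraries (adjusted p = 0.00213) and 0.50 from WT (adjusted p = 0.00401). Against WT, ccr (-0.03, adjusted p = 0.865) and the fer-labelled libraries (-0.08, adjusted p = 0.616) had no call. Other pairs of the 4 lipoxygenases shared 60.4% to 62.8% of their coding bases.

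LOX6, a lipoxygenase linked to xylem and to rapid wound signals, was the most abundant of the 4 in WT and ccr. It was at 69.1, 67.6 and 64.5 FPKM in WT, 51.6, 50.7 and 52.3 in ccr, 80.2, 82.03 and 75.5 in fer-labelled libraries, and 55.5, 60.98 and 57.98 in ccrfer. The genotypes did not overlap, in the rising order ccr, ccrfer, WT, fer-labelled. Against WT it fell in ccr (-0.37, SE 0.0548, adjusted p = 0.00016) and ccrfer (-0.20, adjusted p = 0.00908) and rose in the fer-labelled libraries (0.24, adjusted p = 0.00325), while ccrfer minus fer-labelled was -0.44 (adjusted p = 5.91e-05). The ccrfer call against WT was lost after quantile normalization (adjusted p = 0.0575). The ccrfer minus ccr difference of 0.17 (adjusted p = 0.0472) lost its call in 10 of 14 alternative fits, among them those without any 1 of the 3 ccr replicates and without ccrfer replicate 2 or 3 (adjusted p from 0.0538 to 0.148 over the 10).

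Summed over the 4 lipoxygenases, the genes made up different shares in different genotypes. The sum was 87.1 ± 2.57 FPKM in WT, 83.7 ± 1.21 in ccr, 322 ± 5.18 in the fer-labelled libraries and 157 ± 6.09 in ccrfer (mean ± SD, n = 3). LOX6 held 76.96% ± 0.568 of it in WT and 61.5% ± 0.915 in ccr, and LOX2 held 2.89% ± 0.396 and 8.25% ± 0.418. In the fer-labelled libraries LOX2 held 66.97% ± 1.06 and LOX6 24.6% ± 0.821, and in ccrfer LOX2 held 44.7% ± 1.502 and LOX6 36.996% ± 0.388. Without LOX2 the sum was 84.6 ± 2.84 FPKM in WT, 76.8 ± 1.34 in ccr, 106 ± 3.98 in the fer-labelled libraries and 87.03 ± 5.61 in ccrfer, a narrower range. These shares of FPKM, a per-length level, carry no test.

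**Figure D1:**
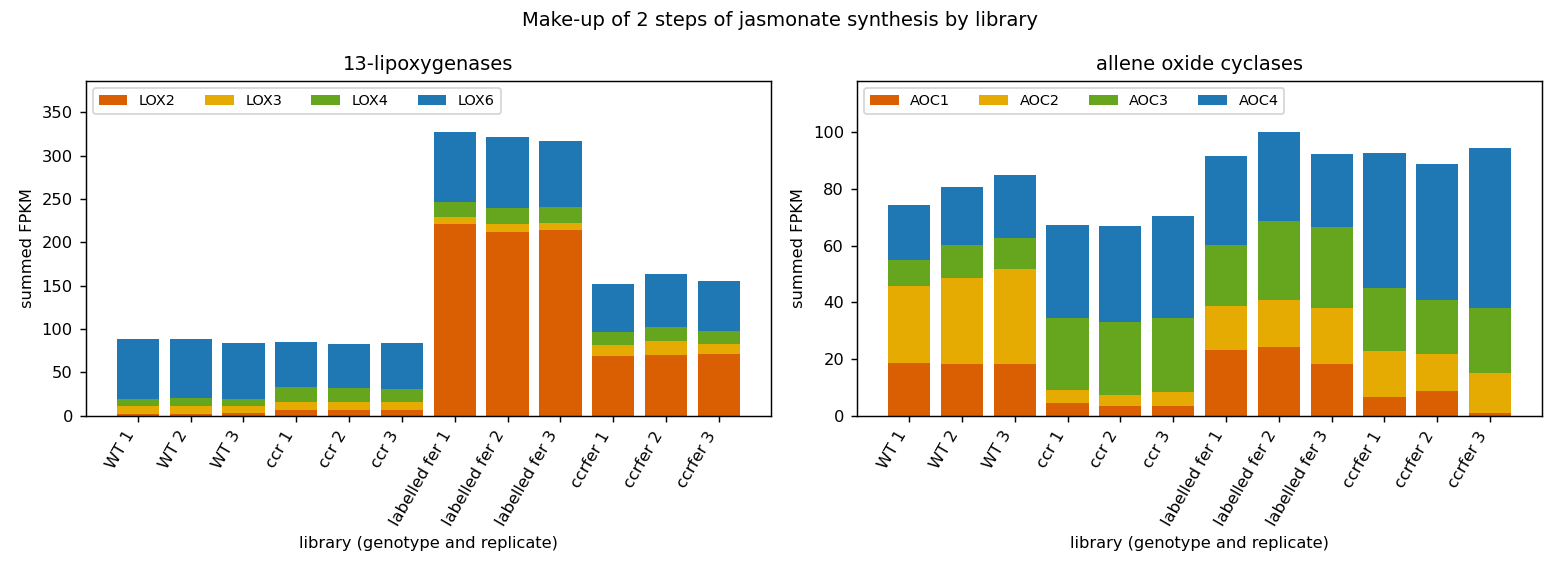
Stacked bars give the summed FPKM of the 4 lipoxygenase genes and of the 4 allene oxide cyclase genes in each of the 12 libraries, named by genotype and replicate on the horizontal axis. LOX2 is a thin layer in WT and ccr and the thickest in the fer-labelled and ccrfer libraries, and AOC1 and AOC2 together are thinnest in ccr.

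AOS, the P450 enzyme that opens the jasmonate branch, was highest in the fer-labelled libraries. It was at 42.7, 43.7 and 38.1 FPKM in WT, 51.3, 46.999 and 49.1 in ccr, 90.4, 87.5 and 88.1 in fer-labelled libraries, and 51.3, 57.3 and 48.6 in ccrfer. ccr and ccrfer overlapped each other (0.09, adjusted p = 0.425) and lay above WT. Against WT the difference was 1.08 in the fer-labelled libraries (SE 0.0718, adjusted p = 1.15e-07), 0.33 in ccrfer (adjusted p = 0.00242) and 0.24 in ccr (adjusted p = 0.017). The call in ccr was lost without ccr replicate 1 (0.0706) or WT replicate 3 (0.0806). The ccrfer minus fer-labelled difference was -0.75 (adjusted p = 7.28e-06).

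AOC2, a plastid cyclase, was below WT in the other genotypes and lowest in ccr. It was at 27.3, 30.2 and 33.6 FPKM in WT, 4.46, 3.94 and 4.86 in ccr, 15.5, 16.6 and 19.5 in fer-labelled libraries, and 16.1, 12.7 and 14.1 in ccrfer. WT was highest and ccr lowest, with ccrfer and the fer-labelled libraries overlapping between them. Against WT the difference was -2.53 in ccr (SE 0.119, adjusted p = 1.09e-08), -0.79 in the fer-labelled libraries (adjusted p = 0.000149) and -1.04 in ccrfer (adjusted p = 1.89e-05). AOC2 rose from ccr to ccrfer by 1.495 (adjusted p = 2.87e-06), and ccrfer minus fer-labelled was -0.25, without a call (adjusted p = 0.121).

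AOC1, its tandem neighbour, fell in ccr as well. It was at 18.6, 18.4 and 18.1 FPKM in WT, 4.53, 3.43 and 3.40 in ccr, 23.4, 24.3 and 18.4 in fer-labelled libraries, and 6.78, 8.91 and 1.117 in ccrfer. The fer-labelled libraries overlapped WT, and ccrfer replicate 3 lay below the other ccrfer libraries and below all of ccr. The difference from WT was -2.03 in ccr (SE 0.425, adjusted p = 0.00214), -1.83 in ccrfer (adjusted p = 0.00371) and 0.24 in the fer-labelled libraries, without a call (adjusted p = 0.668). In ccrfer it was -2.07 from the fer-labelled libraries (adjusted p = 0.00225) and 0.20 from ccr (adjusted p = 0.78). Without ccrfer replicate 3 the ccrfer differences were -1.14 from WT, -1.38 from the fer-labelled libraries and 0.88 from ccr, the last then called (adjusted p = 0.001).

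The other cyclase genes were higher than in WT where AOC2 was lower. AOC3 (AT3G25780), the next gene after AOC2 on the same strand of chromosome 3, was at 8.90, 11.5 and 11.005 FPKM in WT, 25.5, 25.6 and 26.3 in ccr, 21.5, 27.6 and 28.7 in fer-labelled libraries, and 22.2, 19.1 and 22.8 in ccrfer. AOC4 (AT1G13280), on chromosome 1, was at 19.7, 20.8 and 22.2 FPKM in WT, 32.9, 33.9 and 35.9 in ccr, 31.4, 31.5 and 25.9 in fer-labelled libraries, and 47.6, 48.2 and 56.3 in ccrfer. All libraries of the other genotypes lay above all WT libraries for both. Against WT the AOC3 difference was 1.23 in ccr (adjusted p = 5.68e-06), 1.23 in the fer-labelled libraries and 0.97 in ccrfer, and that of AOC4 was 0.69 (adjusted p = 7.52e-05), 0.48 and 1.24, all called. There were 1330 bases between AOC1 and AOC2 and 1088 between AOC2 and AOC3 in TAIR10.1, and their coding sequences were 90.3% (AOC1 and AOC2), 82.7% (AOC1 and AOC3) and 82.4% (AOC2 and AOC3) identical. No exon window of 75 bases of the 4 cyclases occurred elsewhere in the genome, but reads aligned with mismatches could be split between such copies, so their separate values carry that uncertainty.

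AOC1 and AOC2 summed to 48.7 ± 2.91 FPKM in WT, 8.21 ± 0.812 in ccr, 39.2 ± 1.55 in the fer-labelled libraries and 19.9 ± 4.11 in ccrfer (mean ± SD, n = 3). AOC3 and AOC4 summed to 31.4 ± 2.48, 60.04 ± 1.97, 55.5 ± 3.23 and 72.1 ± 6.22 FPKM in that order. Over all 4 the sum was 80.1 ± 5.29, 68.3 ± 1.94, 94.7 ± 4.62 and 91.97 ± 2.76, a narrower range than for either pair. AOC2 was the largest part in WT (37.8% ± 1.53) and AOC4 in ccr (50.2% ± 1.14) and ccrfer (55.1% ± 4.21).

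OPR3, the peroxisomal reductase whose loss makes flowers male-sterile, was at 62.5, 57.2 and 57.6 FPKM in WT, 66.5, 66.4 and 64.8 in ccr, 92.02, 85.3 and 82.8 in fer-labelled libraries, and 91.1, 106 and 66.6 in ccrfer. ccrfer replicate 3 lay at the level of ccr, and the other ccrfer libraries lay within or above the fer-labelled range. Against WT OPR3 rose in the fer-labelled libraries (0.54, SE 0.126, adjusted p = 0.00333) and in ccrfer (0.54, adjusted p = 0.00395), with -0.01 between the pair (adjusted p = 0.974). The ccr minus WT difference of 0.16 had no call (adjusted p = 0.354) though the libraries did not overlap, and passed in a fit of these genotypes alone (0.0138). The ccrfer minus ccr difference of 0.38 (adjusted p = 0.0527) passed without ccrfer replicate 3 (0.57, adjusted p = 0.000116), after quantile normalization (0.0219) and with AT2G01021 as a covariate (0.67, adjusted p = 0.00113).

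JAR1, which makes the active conjugate, was highest in WT. It was at 81.6, 83.4 and 77.1 FPKM in WT, 60.3, 62.98 and 57.6 in ccr, 65.3, 68.5 and 61.96 in fer-labelled libraries, and 53.6, 57.6 and 50.6 in ccrfer. The WT libraries lay above all others, and ccrfer lay just below ccr. Against WT it fell in ccr (-0.42, SE 0.0640, adjusted p = 0.000235), in the fer-labelled libraries (-0.30, adjusted p = 0.00179) and in ccrfer (-0.57, adjusted p = 1.43e-05). The ccrfer minus fer-labelled difference was -0.27 (adjusted p = 0.0053). That of ccrfer minus ccr was -0.16 (adjusted p = 0.107) and passed without ccrfer replicate 2 (0.0469).

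CYP94B3, which hydroxylates the active conjugate, was at 0.407, 0.519 and 0.556 FPKM in WT, 0.377, 0.785 and 0.701 in ccr, 0.687, 0.741 and 0.153 in fer-labelled libraries, and 1.37, 0.975 and 0 in ccrfer. All genotypes overlapped, and 11 of 12 libraries were under 1 FPKM. Fitted without the filter, ccr minus WT was 0.11 (adjusted p = 0.83) and ccrfer minus WT 0.16 (adjusted p = 0.705), so no difference was detectable at these levels.

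**Figure D2:**
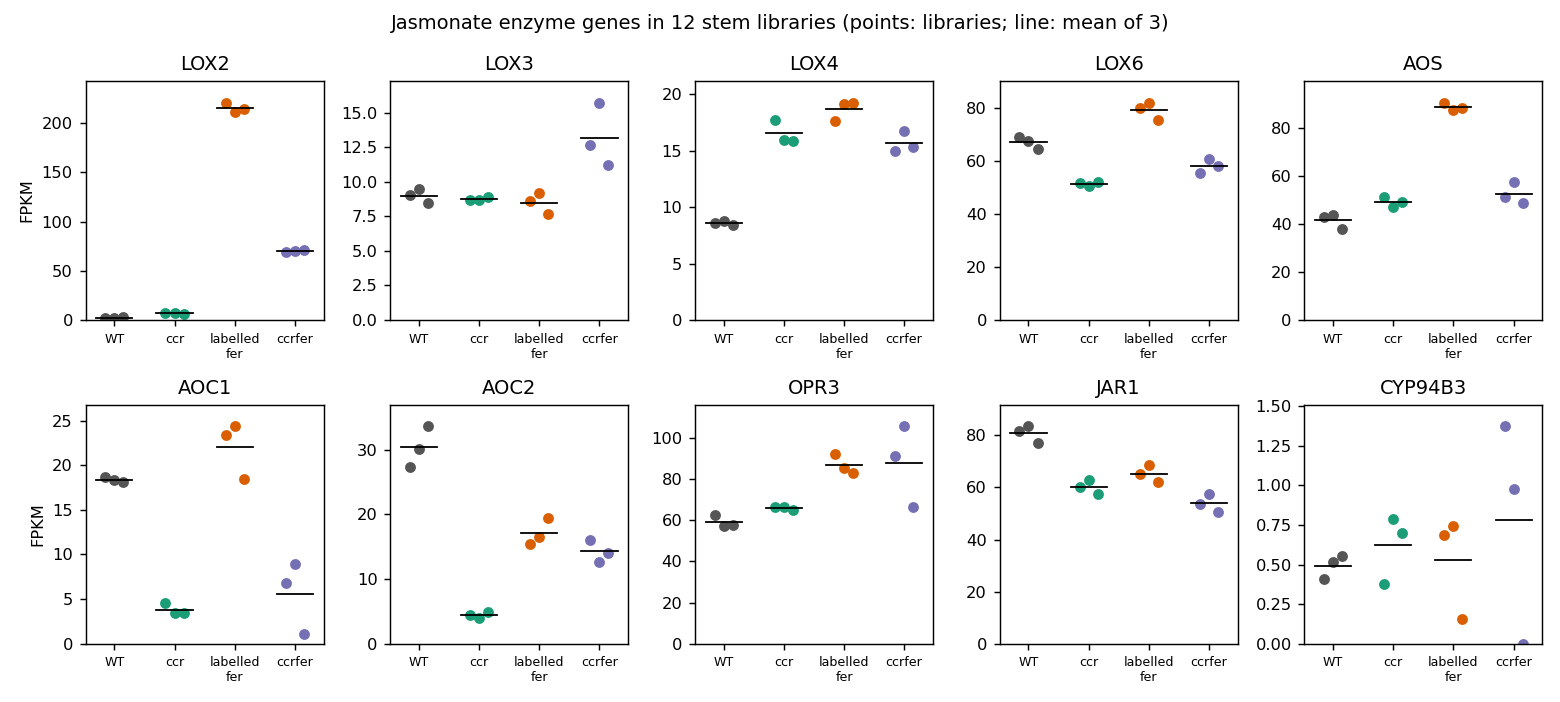
Each panel plots the FPKM of 1 gene (vertical axis, from 0) in the 12 libraries by genotype, with points for libraries and lines for means of 3. LOX2 and AOS are highest in the fer-labelled libraries, AOC2 is lowest in ccr, JAR1 is highest in WT, and ccrfer replicate 3 is the lowest ccrfer point for AOC1 and OPR3.

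Counted together in ccr against WT, 3 of the 9 tested members rose (background 24% of tested genes) and 4 fell (19.8%), beside 43.7% called in either direction. In the fer-labelled libraries against WT 5 rose (28.4%) and 2 fell (23.2%), beside 51.6%. In ccrfer against WT 5 rose (24.9%) and 4 fell (22.8%), beside 47.8%. From ccr to ccrfer 4 rose (10.4%) and none fell (10.1%), beside 20.5%, and ccrfer minus fer-labelled had 1 higher (19.3%) and 6 lower (21.3%), beside 40.6%. The members' median differences were -0.03 in ccr, 0.24 in the fer-labelled libraries and 0.33 in ccrfer against WT, and 0.20 and -0.27 for ccrfer against ccr and the fer-labelled libraries. Over all tested genes these medians were 0.03, 0.04, 0.00, 0.00 and -0.01. The libraries of the groups did not overlap for 8 members in ccr (background 69%), 7 in the fer-labelled libraries (63.4%) and 9 in ccrfer (55.6%) against WT, and for 6 and 7 in ccrfer against ccr (38%) and the fer-labelled libraries (43%). Comparisons that share a genotype share its libraries.

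The difference ccrfer minus fer-labelled was also set against ccr minus WT by testing the first less the second, the interaction of the design. Because FER was lower in ccrfer than in the fer-labelled libraries, the first difference holds the loss of FER as well as the ccr mutation. The interaction was positive for 2 members (background 17.1%) and negative for 3 (22.4%), beside 39.5% of tested genes in either direction. LOX2 (-2.78, adjusted p = 1.49e-09), LOX4 (-1.11, adjusted p = 7.87e-06) and AOS (-0.99, adjusted p = 1e-05) were negative, and AOC2 (2.28, adjusted p = 6.78e-07) and LOX3 (0.60, adjusted p = 0.0123) positive.

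**Figure D3:**
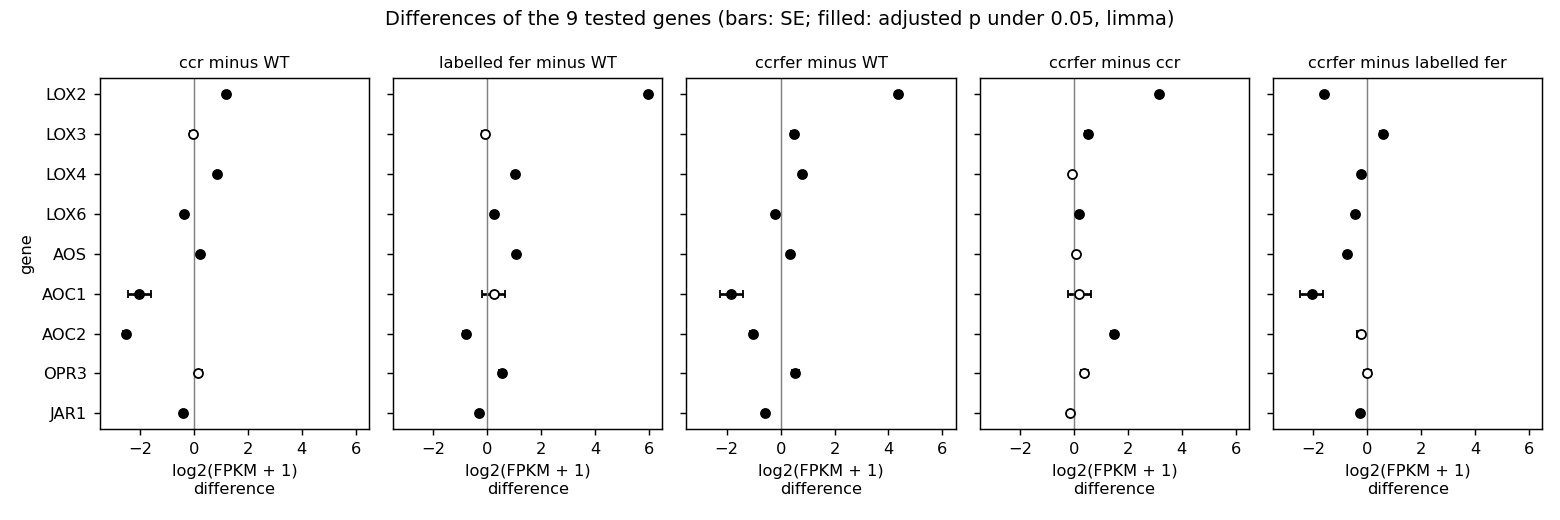
Panels give comparisons, with the log2(FPKM + 1) difference on the horizontal axis the 9 tested genes as rows, bars for the SE and filled points for calls in limma. LOX2 stands farthest right in the fer-labelled libraries against WT (5.95) and AOC2 farthest left in ccr against WT (-2.53).

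Members followed several patterns over the 12 libraries. Pearson r of LOX2 was 0.87 with AOS, 0.83 with OPR3 and 0.75 with LOX4, but 0.13 with AOC1, 0.04 with AOC2 and -0.52 with JAR1. After removal of the genotype means r of LOX2 was -0.53 with AOS, -0.14 with OPR3 and -0.14 with LOX4, so the positive values came with differences between genotypes. Over all libraries AOC1 had 0.84 with LOX6, 0.73 with JAR1 and 0.18 with OPR3, and 0.22, 0.64 and 0.94 after removal of the genotype means. For AOC1, JAR1 and OPR3 alike, ccrfer replicate 3 was the lowest ccrfer library. The correlations were not computed without that replicate, so how far they rest on it is not known. The tested genes outside the lists most like LOX2 were MEB1 (0.997), IPMI1 (0.997), which acts in glucosinolate synthesis, and SOT17 (0.995), a glucosinolate sulfotransferase. Most like AOC1 were the photosystem genes PSAN (0.976), PSBQ-2 (0.975) and PSAF (0.971), and most like AOC2 were MYB90 (0.987), an anthocyanin regulator, UGT84A2 (0.984) and CRK18 (0.978). For AOS they were ROC1 (0.990), MYB95 (0.988) and ASB1 (0.987), for LOX4 FP3 (0.991), XTH4 (0.990) and AGP31 (0.989), and for LOX6 LDOX (0.985), CRB (0.983) and GLU1 (0.983). For LOX3 they were PELPK1 (0.943), LAC3 (0.920) and IPT5 (0.915), for OPR3 AT1G48870 (0.973), AT1G31550 (0.959) and HTA10 (0.943), and for JAR1 AT1G52810 (0.986), CP12-2 (0.981) and AT5G24870 (0.975). These are descriptions over libraries that share 4 genotypes, with no test.

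Of 16 other synthesis genes 14 were tested, since the lipase genes DAD1 and DGL stayed at or under 0.0846 FPKM. Against WT 7 rose and 5 fell in ccr (24% and 19.8% of all tested genes), 8 rose and 6 fell in the fer-labelled libraries (28.4% and 23.2%), and 8 rose and 6 fell in ccrfer (24.9% and 22.8%), with medians of 0.10, 0.34 and 0.40. FAD3, a desaturase that makes linolenic acid, was at 1.82, 1.62 and 1.38 FPKM in WT, 8.30, 8.09 and 8.24 in ccr, 7.81, 8.97 and 7.89 in fer-labelled libraries, and 11.4, 10.01 and 13.6 in ccrfer. All libraries of the other genotypes lay above WT, by 1.83 in ccr (adjusted p = 2.43e-07) and 2.28 in ccrfer (adjusted p = 2.38e-08). FAD8, a plastid desaturase, was low, at 0.578, 0.350 and 0.354 FPKM in WT and at most 3.89 in any library. Against WT it rose by 0.88 in ccr, 1.52 in the fer-labelled libraries and 1.38 in ccrfer. With a pseudocount of 0.1 these were 1.72, 2.62 and 2.43, so their size depends on the pseudocount. From ccr to ccrfer 4 rose (AOC4 0.55, FAD3 0.45, OPCL1 0.32 and MFP2 0.19) and none fell, beside 10.4% and 10.1% of all tested genes. Without any 1 of the 3 ccr replicates 2 in place of 4 were called, and FAD3 and MFP2 lost their calls in 6 and 8 of 14 alternative fits. In ccrfer minus fer-labelled 7 were higher (19.3%) and none lower (21.3%).

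Several genes of peroxisomal beta-oxidation were below WT and others above it. KAT2, the thiolase, was at 219.6, 210.3 and 209.8 FPKM in WT, 121, 117 and 116 in ccr, 64.5, 52.4 and 58.6 in fer-labelled libraries, and 108, 113 and 108 in ccrfer. WT was highest and the fer-labelled libraries lowest, with differences from WT of -0.85 in ccr (adjusted p = 9.65e-07), -1.85 in the fer-labelled libraries (adjusted p = 5.87e-10) and -0.95 in ccrfer (adjusted p = 2.79e-07). In the same order MFP2, a multifunctional enzyme, gave -0.62, -0.80 and -0.43, its relative AIM1 -0.40, -0.73 and -0.39, and the acyl-CoA oxidase gene ACX5 -0.38, -0.67 and -0.40, all called lower. The ACX5 call in ccr was lost without WT replicate 1 (adjusted p = 0.0566) or ccr replicate 1 (0.0539). ACX1, another acyl-CoA oxidase gene, was called higher (0.45, 0.48 and 0.47), as was OPCL1, the ligase that feeds beta-oxidation (0.14, 0.21 and 0.46, the first call lost in 7 of 14 alternative fits, 5 of them without 1 library). DFL2, a GH3 gene, was called lower (-1.02, -1.35 and -0.91). The summed senescence markers were also highest in WT, and their part was not tested.

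Of 10 other turnover genes 9 were tested, AT2G38240 staying at or under 0.808 FPKM. Against WT 4 rose and 2 fell in ccr (24% and 19.8% of all tested genes), 8 rose and none fell in the fer-labelled libraries (28.4% and 23.2%), and 7 rose and none fell in ccrfer (24.9% and 22.8%), with medians of 0.30, 2.02 and 1.01. Leaving out any 1 of the ccr and WT replicates cut the 6 calls in ccr to 3 (without ccr replicate 1, WT replicate 2 or WT replicate 3) or 4 (without another). JMT, which makes methyl jasmonate, was at 0.433, 0.305 and 0.277 FPKM in WT, 0.774, 0.731 and 0.934 in ccr, 13.03, 12.5 and 13.3 in fer-labelled libraries, and 1.11, 2.27 and 0 in ccrfer. It was high in the fer-labelled libraries alone (3.38 from WT, adjusted p = 2.66e-06) and lower in ccrfer than there (-2.87, adjusted p = 2.44e-05). ILL6, an amidohydrolase that splits the active conjugate, was at 10.4, 10.2 and 10.3 FPKM in WT, 13.5, 13.4 and 11.95 in ccr, 70.1, 68.1 and 69.5 in fer-labelled libraries, and 33.8, 32.2 and 31.4 in ccrfer. It followed the genotype order of LOX2, at 0.30, 2.64 and 1.57 from WT in ccr, the fer-labelled libraries and ccrfer (adjusted p = 0.00215, 2.42e-11 and 1.94e-09).

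JRG21, a jasmonate-regulated gene, was at 5.83, 5.82 and 5.64 FPKM in WT, 2.13, 2.78 and 2.63 in ccr, 32.2, 28.5 and 31.3 in fer-labelled libraries, and 40.7, 39.7 and 36.6 in ccrfer. It was lowest in ccr (-0.95 from WT, adjusted p = 5.29e-06) and highest in ccrfer (3.51 from ccr, adjusted p = 1.48e-10). AT5G05600, annotated as an oxygenase that uses 2-oxoglutarate and iron, was at 21.9, 18.1 and 18.7 FPKM in WT, 11.2, 13.7 and 14.2 in ccr, 112, 109 and 103 in fer-labelled libraries, and 40.1, 41.1 and 39.2 in ccrfer. It fell in ccr (-0.55, adjusted p = 0.000436) and rose in the fer-labelled libraries (2.41, adjusted p = 8.68e-10) and ccrfer (1.01, adjusted p = 2.54e-06) against WT. From ccr to ccrfer 7 of the 9 rose (10.4% of all tested genes) and none fell (10.1%), with a median of 1.02, among them CYP94B1 (1.02), a relative of CYP94B3, and ST2A (1.181), a sulfotransferase of hydroxyjasmonate. CYP94B1 was at 3.34, 3.59 and 6.80 FPKM in ccrfer. Its difference was 0.75 without ccrfer replicate 3, still called. With AT2G01021 as a covariate its call was lost (0.80, adjusted p = 0.0826). ST2A was at 0.137, 0.339 and 0.323 FPKM in ccr and peaked at 2.11 over the 12 libraries.

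**Figure D4:**
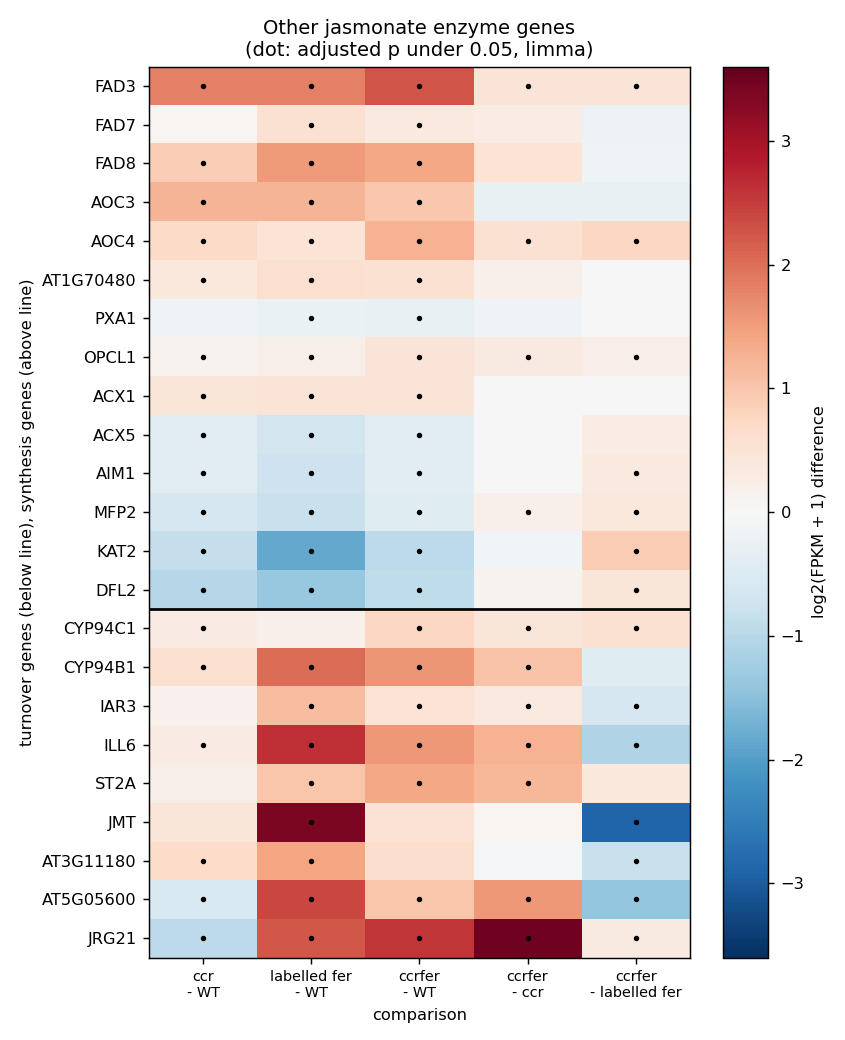
Rows are the tested synthesis and turnover genes outside the members, columns are comparisons, colour is the log2(FPKM + 1) difference (red higher, blue lower) and dots mark calls in limma. KAT2 is lower in all 3 comparisons with WT, and 8 of 9 turnover genes are called higher in the fer-labelled libraries.

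Among 5 related oxylipin genes, 2 rose and 2 fell in ccr, 3 rose and 2 fell in the fer-labelled libraries, and 3 rose and 1 fell in ccrfer, all against WT, where 43.7%, 51.6% and 47.8% of all tested genes were called in either direction. HPL1, a hydroperoxide lyase gene, was at 2.22, 2.52 and 3.07 FPKM in WT, 9.53, 10.13 and 9.48 in ccr, 48.9, 43.3 and 48.5 in fer-labelled libraries, and 15.1, 15.5 and 11.99 in ccrfer. It followed the order of LOX2, at 1.58 in ccr, 3.74 in the fer-labelled libraries and 2.08 in ccrfer against WT (adjusted p = 4.81e-07, 1.71e-10 and 3.05e-08). OPR2, a relative of OPR3 that is not peroxisomal, was at 13.6, 12.9 and 11.8 FPKM in WT, 14.8, 14.98 and 13.6 in ccr, 0.703, 1.51 and 1.87 in fer-labelled libraries, and 19.04, 20.1 and 20.5 in ccrfer. It was low in the fer-labelled libraries (-2.58 from WT, adjusted p = 5.84e-08), where OPR3 was high. Its neighbour OPR1 was lower there too (-1.73), but both genes overlap by 216 bases on 1 strand, so their values are not fully separate. LOX1, a 9-lipoxygenase outside the jasmonate route, fell in ccr (-0.36) and rose in the fer-labelled libraries (1.70) and ccrfer (0.89).

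Of 18 perception and regulator genes, 5 rose and 3 fell in ccr, 13 rose and 2 fell in the fer-labelled libraries, and 8 rose and 4 fell in ccrfer, all against WT, beside the same 43.7%, 51.6% and 47.8% of all tested genes. From ccr to ccrfer 6 rose (10.4%) and 1 fell (10.1%), and in ccrfer minus fer-labelled none was higher (19.3%) and 15 were lower (21.3%). The repressor gene JAZ9 was at 44.3, 44.9 and 50.2 FPKM in WT, 58.9, 59.1 and 60.1 in ccr, 371, 398 and 384 in fer-labelled libraries, and 139, 132 and 139 in ccrfer. Its genotypes kept the order seen for LOX2, which was not so for every JAZ gene. JAZ6 was at 49.5, 48.4 and 50.04 FPKM in ccr, below 53.2, 55.4 and 53.6 in WT, though this difference had no call. MYC2 was at 115, 114 and 102 FPKM in WT, 117, 104 and 110.1 in ccr, 203, 197 and 183 in fer-labelled libraries, and 76.7, 87.5 and 79.9 in ccrfer. It was lower in ccrfer than in ccr (-0.44, adjusted p = 0.000875), while LOX2, LOX3 and AOC2 were higher there. COI1, the receptor, had no call in ccr (-0.17) or the fer-labelled libraries (0.00) against WT, and its call in ccrfer (-0.22) was lost in 8 of 14 alternative fits.

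None of the members stood among the 313 genes of the authors' deposited table, whose adjusted p-values are for ccr against WT and ccr against ccrfer. The limma fits called more genes than that, 8058 in ccr minus WT and 3769 in ccrfer minus ccr. Absence from the authors' table is therefore no test of a difference.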

How the data were processed

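Per the submitters' processing notes, the tools named included TopHat2 2.1.1, Bowtie2 2.3.2.0, Cufflinks 2.2.1 and Cuffdiff, with genome TAIR10. Per the file headers, genes follow Araport11. The authors deposited FPKM for each gene and library, and a table of 313 genes with mean FPKM, log2 ratios and adjusted p-values. Their read report gives deposited read counts and the mapped fraction. Gene counts were not analysed.

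A linear model with a mean per genotype was fitted to log2(FPKM + 1) with limma 3.58.1 in R 4.3.3 (trend, no block, two-sided, Benjamini-Hochberg), keeping genes that reached FPKM 1 in 3 or more libraries. The pseudocount understates changes of low genes. The code was tested on simulated data. Alternatives were other scalings, a pseudocount of 0.1, no filter, no trend, a replicate block, AT2G01021 as a covariate, only the genotypes compared, and each library left out.

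Members and lists were chosen with earlier results of these data known. Named genes were the members, AOC3 and AOC4 and the 3 genes most like each member. From each list, up to 4 called genes per comparison with the largest differences were to be named. Not all of these are named in the Results, and JAZ5 and JAZ10 are among those left out. Other named list genes were chosen after their values were seen. Upstream sequences came from TAIR10.1, in which 310 of 312 genes of the authors' table with coordinates lay within the gene of the same identifier. Coding identity used Biopython 1.88.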

Additional observations from a re-analysis of the deposited data

Results flagged for a closer look

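The interaction, (ccrfer minus fer-labelled) minus (ccr minus WT), passed the threshold in limma for 5 members. FER was as high as in WT in the fer-labelled stems and near 0 in ccrfer, so a ccr effect and the loss of FER cannot be told apart in ccrfer minus fer-labelled. LOX2 was higher in ccr than in WT and lower in ccrfer than in the fer-labelled stems, with an interaction of -2.78 (SE 0.0950). LOX4 (-1.11) and AOS (-0.99) turned the same way, each with 1 less stable call. That of LOX4 between ccrfer and the fer-labelled stems was lost in 4 of 14 alternative fits, and that of AOS in ccr in 2 of 14. AOC2 (2.28, SE 0.169) fell in ccr and had no call between ccrfer and the fer-labelled stems. LOX3 (0.60) was higher in ccrfer and had no call in ccr.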

How the results depend on the processing

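Of 801 alternative values of member differences 760 kept their direction and side of the threshold, 17 lost a call, 10 gained one and 14 changed sign, each of these 14 in a difference that had no call. The number of members called stayed within 1.5 times its main count in all 89 alternatives. Replicate numbers were not taken to pair libraries, since deviations of 18 same-numbered pairs correlated between -0.13 and 0.19. The replicate block left 3650 genes called in ccrfer minus ccr (3769 without it) and changed 3 member calls, all in ccrfer against ccr: it ended that of LOX6 (0.17, adjusted p = 0.0635) and gave those of OPR3 (0.38, adjusted p = 0.0404) and JAR1 (-0.16, adjusted p = 0.0392).

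Leaving out single libraries gave -0.23 to 0.88 for AOC1 in ccrfer minus ccr and -0.47 to 0.64 for its interaction (called without ccrfer replicate 3, adjusted p = 0.0189), -0.0666 to 0.00493 for LOX3 in ccr minus WT, -0.15 to 0.18 for OPR3 in ccrfer minus fer-labelled and -0.307 to 0.0217 for its interaction. With AT2G01021 as a covariate the AOC1 interaction was 0.0583, LOX3 in the fer-labelled libraries against WT 0.10, and AOC1 there was called (1.03, adjusted p = 0.0425). AT2G01021 was itself higher in the fer-labelled libraries than in WT, which limits that fit. After quantile normalization the LOX6 interaction was 0.0525 and OPR3 in ccrfer minus fer-labelled 0.13. The JAR1 interaction was then called (0.23, adjusted p = 0.0431), against 0.14 without a call in the main fit (adjusted p = 0.234). Among all genes, 2310 in place of 3769 were called in ccrfer minus ccr with the covariate, and 4380 in place of 7481 in ccrfer minus fer-labelled in the fit of these genotypes alone. The cause was not tested. Of the other synthesis genes in ccrfer minus ccr, 2 in place of 4 were called in a fit of ccrfer and ccr alone and 2 to 4 without single libraries, and of the other turnover genes in ccr minus WT 3 to 4 in place of 6 without single libraries. List counts under alternatives were added after the data were seen. FPKM carries no count, so the counting error of low values such as CYP94B3 is unknown.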
